A study of Homo sapiens with 2 samples.

Results

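ERBB2 and 9 genes that lie beside it at 17q12 on the long arm of chromosome 17 were followed in a single-cell, long-read RNA library made from a pool of ovarian cancer cell lines. The members were CDK12, MED1, STARD3, TCAP, PPP1R1B, PNMT, PGAP3, ERBB2, MIEN1 and GRB7, listed by gene name for their position beside ERBB2, with earlier results of these data known. All 10 were found among 57110 gene entries, 0 of them joined with an overlapping gene, and they held 37 of the 99493 listed transcripts. The pool held 3 established human lines grown from ovarian tumours (IGROV1, SK-OV-3 and COV504) in equal parts, with no drug, genotype or time compared. 1 library was sequenced on an Illumina instrument and 1 on a nanopore PromethION, which reads whole cDNA molecules. Only the PromethION library gave values here, so no value has a replicate and no test between lines was possible.

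Cells were assigned to 3 lines by marker genes that are not members, each line being called by its leading marker. The NNMT line (NNMT, TSPAN1, DHRS2) held 620 barcodes and 3310515 counts, with a median of 4957 counts per barcode. The RARRES2 line (RARRES2, TMEM100) held 486 barcodes and 3456107 counts, with a median of 6251. The FOLR1 line (FOLR1, CLDN3, DEFB1, CXCL14) held 774 barcodes and 4590139 counts, with a median of 5308.5. All 2462 deposited barcodes were also in the Illumina list. CDKN2A, a cell cycle inhibitor gene whose absence was the independent check for SK-OV-3, had 1 count in the NNMT line, 0 in the RARRES2 line and 88 in the FOLR1 line. It therefore does not separate the first of these lines from the second, and no line was given a cell line's name. Of 6 marker genes of leukocytes, fibroblasts and endothelium, CD3E and DCN were at 0 in all lines, PTPRC had at most 1 count per line and PECAM1 at most 9. CD68 was counted only in an entry joined with SENP3, EIF4A1 and other genes, so it gives no value of its own. Summed over the other 5, the level was 98.8 counts-per-million (CPM) in the NNMT line, 23.1 in the RARRES2 line and 5.45 in the FOLR1 line. Most of this was COL1A1, with 323, 79 and 15 counts in that order of lines. The part of these genes in the results below was not tested.

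ERBB2 encodes a receptor tyrosine kinase of the epidermal growth factor receptor family. It has no known ligand of its own and signals by pairing with EGFR, ERBB3 or ERBB4, after which adaptors such as GRB7 bind its phosphorylated tail. In breast, gastric and some ovarian tumours the stretch of chromosome 17 around ERBB2 is present in extra copies, and genes next to it are then carried along. DNA copy number was not measured here, so what follows describes RNA alone.

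Levels are given as CPM of each line's own total. Mitochondrial and ribosomal protein genes held 17.1% of the RARRES2 line total and 32.6% of the FOLR1 line total. Without them the FOLR1 line would stand higher against the RARRES2 line, and ratios between these lines were not recomputed that way. Intervals in parentheses are 95% intervals that cover counting error only, since barcodes of 1 library are not replicates. The ratio used throughout divides the NNMT line by the higher of the other lines, and the word call means a ratio of at least 2 in an entry with at least 50 counts over the 3 lines. Among 10202 such entries, 10.8% were called higher in the NNMT line. Of the members, 9 of 10 had 50 counts and 8 of these 9 were called, GRB7 being the exception. In the RARRES2 line 8.1% of entries were called and 0 members, and in the FOLR1 line 4.77% and 0 members. PPP1R1B, PNMT and PGAP3 reached 50 counts through the NNMT line alone, so they had to differ, and the count of 8 holds no support from them. Where the 50 counts had to come from the other lines, 6 members remained and 5 were called, against 7.93% of 9157 entries. Of all entries 47.6% were highest in the NNMT line, by any margin, and all 9 members with 50 counts were. At a limit of 1.5-fold 22.2% of entries and all 9 of these members were called. At a limit of 4-fold 2.11% of entries and 5 members were called (PPP1R1B, STARD3, PNMT, PGAP3 and ERBB2), and the same caution holds for 3 of them. Of the 6 members with 50 counts in the other lines, 2 were called at 4-fold (STARD3 and ERBB2), against 0.852% of those entries. At least 2-fold lower in the NNMT line than in the lower of the others were 5.13% of entries and 0 members.

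ERBB2 (ENSG00000141736, chr17:39687914-39728662, plus strand, GRCh38) was the member the region is named for. It had 1394 counts in the NNMT line, 81 in the RARRES2 line and 115 in the FOLR1 line. The levels were 421 CPM (399 to 444), 23.4 CPM (18.6 to 29.1) and 25.1 CPM (20.7 to 30.1). The NNMT line stood apart and the intervals of the other lines overlapped each other. The ratio was 16.8 (13.9 to 20.5), and the FOLR1 line was at 1.07 (0.797 to 1.44) times the RARRES2 line. The plot of CPM by gene and line shows the NNMT line highest for all 10 members.

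**Figure D1:**
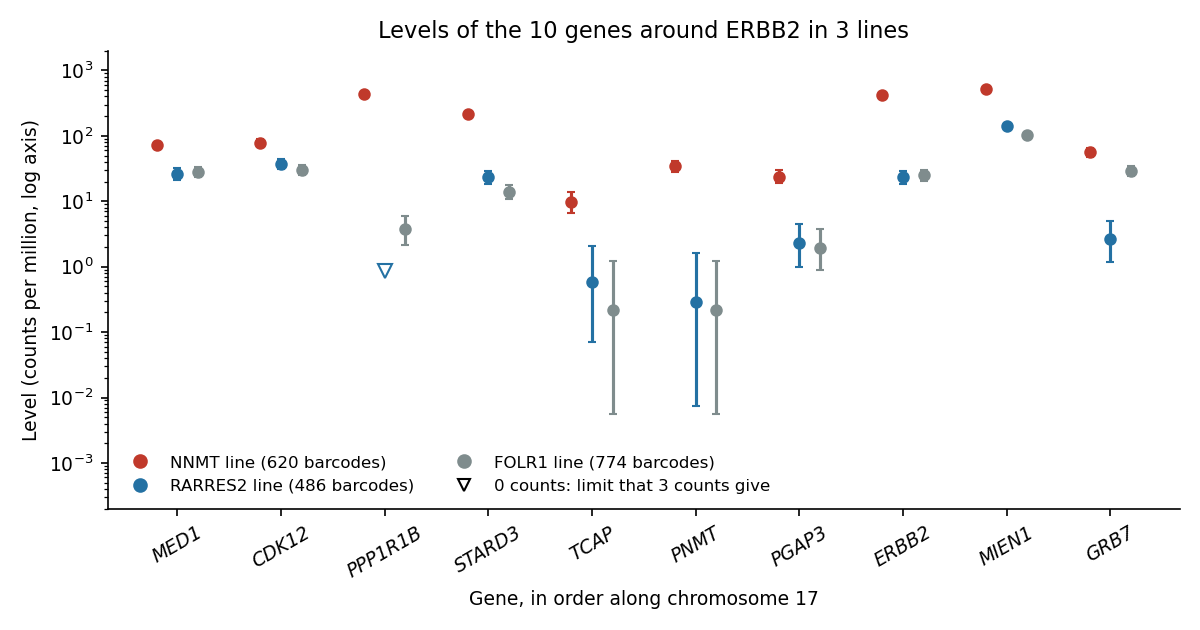
CPM on a log axis for the 10 genes in their order along chromosome 17, in the NNMT line (red), the RARRES2 line (blue) and the FOLR1 line (grey); bars are exact 95% Poisson intervals, the bars without visible length are shorter than the point, and the open triangle marks 0 counts, drawn at the level of 3 counts. The NNMT line is highest for every gene, by the most for PPP1R1B and PNMT and by the least for GRB7, where the FOLR1 line is at 28.8 CPM and the RARRES2 line at 2.60 CPM.

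For nearly all ERBB2 counts the deposited values did not say which start was used. The 3 transcripts that shared nearly all ERBB2 counts differ in their first exon and are identical from exon 2 to exon 27. Their coding sequences are shown from the annotated start codon to base 60 of exon 2, with exon 2 in capitals. A read must reach exon 1 to tell the forms apart. For ENST00000406381 exon 1 is noncoding (251 bases, chr17:39694931-39695181) and is not shown. The sequences are from GENCODE release 29 (GRCh38, plus strand), ENST00000269571 over chr17:39700239-39707049, ENST00000541774 over chr17:39699560-39707049 and ENST00000406381 within chr17:39707007-39707049.
ENST00000269571: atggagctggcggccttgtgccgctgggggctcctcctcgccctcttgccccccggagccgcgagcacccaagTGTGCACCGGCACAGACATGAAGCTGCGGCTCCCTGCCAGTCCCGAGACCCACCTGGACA
ENST00000541774: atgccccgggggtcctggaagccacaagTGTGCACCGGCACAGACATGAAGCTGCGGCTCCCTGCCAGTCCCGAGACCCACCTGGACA
ENST00000406381: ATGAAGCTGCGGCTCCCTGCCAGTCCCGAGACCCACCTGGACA
The first form starts with 73 coding bases of its own and the second with 28. The third has 0 of its own and begins at a start codon inside exon 2.

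A barcode with exactly 1 count of a gene shows how that count was shared. For ERBB2, 332 barcodes had 1 count, and 305 of these split it equally over the 3 transcripts above. In 4 of the 332 (1.20%, 0.329 to 3.06) the count named 1 transcript, in each case ENST00000578199. In another 4 it was shared by ENST00000269571 and ENST00000584450 alone, which start at 39700080 and 39700024. Over 8603 gene entries with at least 20 such barcodes the median share that named 1 transcript was 55.5%, and 303 entries (3.52%) were at or below ERBB2. With all counts, the 3 forms held 36.0%, 31.2% and 31.2% of ERBB2 in the NNMT line in the order printed above. They held 32.5% each in the RARRES2 line and 32.6% each in the FOLR1 line. Estimates of the 3 that were equal within 0.001 were found in 706 of 725 barcodes with ERBB2 (97.4%). All 72 such barcodes of the RARRES2 line and all 95 of the FOLR1 line were equal. The difference between ENST00000269571 and the others thus rested on 17 barcodes of the NNMT line. In that line ENST00000269571 was estimated at 501.8 counts, and ENST00000541774 and ENST00000406381 at 434.3 each.

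**Figure D2:**
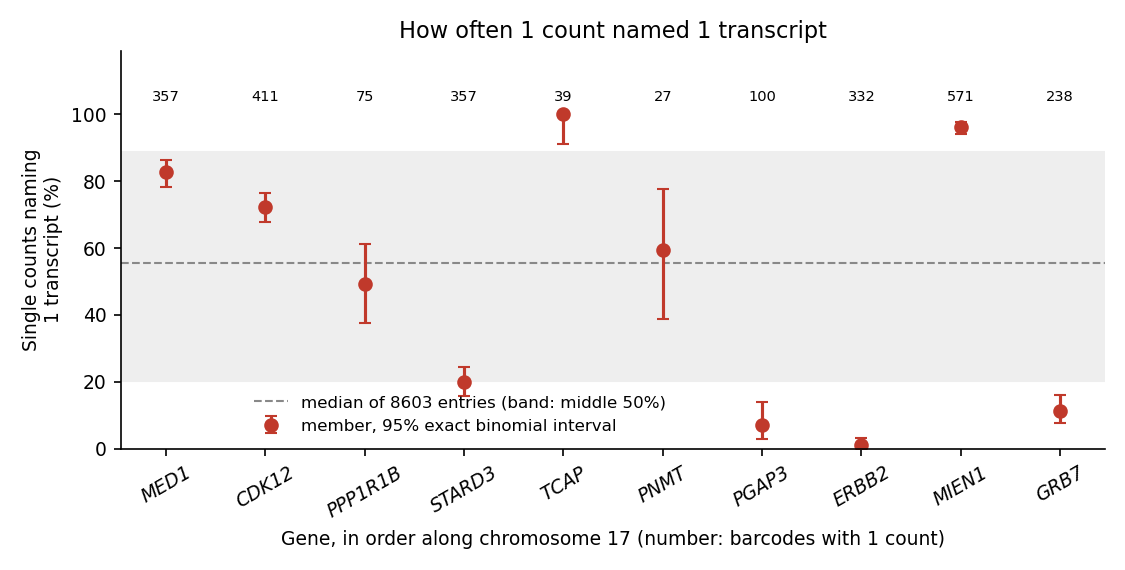
Share of barcodes with exactly 1 count of a gene in which that count named 1 transcript, in percent, for the 10 genes in order along chromosome 17, with exact 95% binomial intervals and the number of such barcodes above each point. The dashed line is the median over 8603 entries (55.5%) and the grey band the middle of the distribution (20.3 to 88.7%): ERBB2, PGAP3, GRB7 and STARD3 lie under the band, MIEN1 and TCAP above it.

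GRB7 (ENSG00000141738, chr17:39737927-39747291, plus strand) encodes the adaptor that binds activated ERBB2. It had 185, 9 and 132 counts in the NNMT, RARRES2 and FOLR1 lines. The levels were 55.9 CPM (48.1 to 64.5), 2.60 CPM (1.19 to 4.94) and 28.8 CPM (24.1 to 34.1), with no overlap between the intervals. The FOLR1 line thus stood between the others. The ratio of the NNMT line to it was 1.94 (1.55 to 2.45), under the limit of 2 but at 2.01 with called doublets removed and at 2.05 with a marker share of 90%. The FOLR1 line was 11.04 (5.64 to 24.7) times the RARRES2 line. Per ERBB2 count, GRB7 had 0.133 (0.113 to 0.155) counts in the NNMT line, 0.111 (0.0490 to 0.222) in the RARRES2 line and 1.15 (0.887 to 1.49) in the FOLR1 line. Its 5 listed transcripts were poorly told apart as well: 27 of 238 single counts (11.3%, 7.61 to 16.1) named 1 transcript.

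STARD3 and PGAP3 encode proteins that handle membrane lipids. STARD3 (ENSG00000131748, chr17:39637065-39663484, plus strand) moves cholesterol at late endosomes. It had 714, 80 and 64 counts in the NNMT, RARRES2 and FOLR1 lines, or 216 CPM (200.1 to 232), 23.1 CPM (18.4 to 28.8) and 13.9 CPM (10.7 to 17.8). The NNMT line was far above the others, whose intervals did not overlap it, and the ratio was 9.32 (7.39 to 11.9). The FOLR1 line was at 0.602 (0.427 to 0.847) times the RARRES2 line on these totals, which include mitochondrial and ribosomal protein genes.

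The main STARD3 transcript, ENST00000336308, and ENST00000394250 differ by exon 5, a coding exon of 54 bases at chr17:39657973-39658026. It is printed in capitals with 20 bases of the exons on each side (GENCODE release 29, GRCh38, plus strand), since its absence is 1 of the differences on which the estimated shares depend.
STARD3 ENST00000336308: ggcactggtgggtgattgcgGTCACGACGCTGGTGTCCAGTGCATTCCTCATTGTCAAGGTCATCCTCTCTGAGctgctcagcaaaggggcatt
With all counts ENST00000336308 held 80.9% of STARD3 in the NNMT line, 69.5% in the RARRES2 line and 68.7% in the FOLR1 line. In barcodes with exactly 1 STARD3 count the shares were 58.0% (198 barcodes), 57.7% (55) and 64.3% (56), and the NNMT line was then not the highest. Of 357 such counts, 71 (19.9%, 15.9 to 24.4) named 1 transcript, 68 of them this one. The higher share in the NNMT line was therefore seen only where a barcode held more than 1 count.

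PGAP3 (ENSG00000161395, chr17:39671122-39688107, minus strand) remodels the lipid of glycosylphosphatidylinositol anchors. It had 79, 8 and 9 counts, or 23.9 CPM (18.9 to 29.7) in the NNMT line, 2.31 CPM (0.999 to 4.56) in the RARRES2 line and 1.96 CPM (0.897 to 3.72) in the FOLR1 line. The intervals of the latter overlapped, and the ratio of the NNMT line was 10.3 (4.98 to 24.7). Only 7 of 100 single counts (2.86 to 13.9%) named 1 of its 5 transcripts. PGAP3 and ERBB2 run in opposite directions and their annotated spans overlap at their starts. No source used here says whether the counting used strand, so reads confined to that overlap cannot be told apart.

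The RefSeq starts of the pair lie 36 bases apart, at 39688057 for PGAP3 on the minus strand and 39688094 for ERBB2 on the plus strand (GRCh38.p14). The bases between them, chr17:39688058-39688093, are shown on the plus strand because the annotated spans of the genes meet there. The 3 transcripts with most ERBB2 counts start farther on, at 39694931, 39699560 and 39700080. ENST00000584601 and ENST00000578199, whose starts lie near the stretch, held 0.431% and 0.579% of ERBB2 counts in the NNMT line. The capitals mark CCGGAAG on either strand, a word of the kind that ETS factors bind.
ERBB2-PGAP3: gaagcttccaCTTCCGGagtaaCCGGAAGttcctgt
The word occurs 2 times in this stretch, once on each strand, with no overlap. It was picked after the stretch had been read. Over 35116 RefSeq promoters of 300 bases, 10.3% hold CCGGAAG on either strand. Promoters were listed for 6 members (MED1, CDK12, STARD3, PGAP3, ERBB2, MIEN1), and 4 of them (STARD3, PGAP3, ERBB2 and MIEN1) hold it, the windows of PGAP3 and ERBB2 sharing 136 bases. CCAAT, searched on both strands, is in 2 of the 6 (MED1 and ERBB2) and in 34.6% of all promoters. GGGCGG is in 3 of the 6 (STARD3, PGAP3 and MIEN1) and in 44.95%, and TATAA in 0 of the 6 and in 20.4%. These matches describe letters in the windows and no binding was measured.

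MIEN1 (ENSG00000141741, chr17:39729156-39730787, minus strand) encodes a small membrane-attached protein known for its part in cell migration. It had 1748, 493 and 472 counts in the NNMT, RARRES2 and FOLR1 lines, or 528 CPM (504 to 553), 143 CPM (130.3 to 156) and 103 CPM (93.8 to 113). None of these intervals overlapped on these totals, which include mitochondrial and ribosomal protein genes. The ratio was 3.70 (3.35 to 4.10), and 1 MIEN1 transcript, ENST00000394231, held 97.9%, 97.9% and 97.1% of the counts in that order of lines. Single counts named 1 transcript in 549 of 571 barcodes (96.1%, 94.2 to 97.6). Per ERBB2 count, MIEN1 had 1.25 (1.17 to 1.35) counts in the NNMT line, 6.09 (4.80 to 7.80) in the RARRES2 line and 4.10 (3.34 to 5.08) in the FOLR1 line.

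The next 3 members are best known outside tumours. PPP1R1B (ENSG00000131771, chr17:39626740-39636626, plus strand) encodes DARPP-32, an inhibitor of protein phosphatase 1 in dopamine-responsive neurons. It had 1424 counts in the NNMT line, 0 in the RARRES2 line and 17 in the FOLR1 line, or 430.1 CPM (408 to 453), 0 and 3.70 CPM (2.16 to 5.93). Against the FOLR1 line the ratio was 116 (72.3 to 199.9). Against the RARRES2 line, which had 0 counts, the NNMT line was at least 402-fold higher by the exact 95% interval. With the RARRES2 line set at the floor of 3 counts the ratio was 495.5. PPP1R1B and ERBB2 had close to 1 count for 1 in the NNMT line, at 1.02 (0.948 to 1.10). In the RARRES2 line that ratio was 0, with an upper limit of 0.0466 beside 81 ERBB2 counts.

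The 17 PPP1R1B counts of the FOLR1 line lay in 5 of its 774 barcodes, with 8, 5, 2, 1 and 1 counts. Scrublet, a program that scores barcodes as likely mixtures of 2 cells, called the first 3 of these doublets, against 12 called in the whole line. In these 3 the line's markers held 75%, 77.3% and 85.7% of all marker counts, and the NNMT markers had 9, 5 and 1 counts. The other 2 barcodes held FOLR1 line markers alone. With called doublets removed from every line, PPP1R1B had 1420 counts in the NNMT line, 0 in the RARRES2 line and 2 in the FOLR1 line. ERBB2 had 7 and 2 counts in the first 2 of the 5 barcodes, both called doublets with marker shares of 75% and 77.3%, close to the 75% needed to join a line. It had 0 counts in the other 3. Pooled over the 5, ERBB2 was at 175 CPM, which rests on those 2 barcodes, against 23.4 CPM in the 769 without PPP1R1B.

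PPP1R1B has a long form, ENST00000254079, and a shorter form, t-DARPP, that starts at a later start codon. The coding bases of exons 1 and 2 of the long form (GENCODE release 29, GRCh38, plus strand, chr17:39627393-39629230) are printed with capitals from the start codon of the shorter form, because the lower-case stretch of 108 bases is what only the long form encodes.
PPP1R1B ENST00000254079: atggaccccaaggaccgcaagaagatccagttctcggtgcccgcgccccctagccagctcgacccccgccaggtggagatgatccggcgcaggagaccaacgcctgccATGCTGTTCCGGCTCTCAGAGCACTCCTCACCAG
In the NNMT line the long form held 87.9% (86.1% at the lower limit) of PPP1R1B, and the shorter forms ENST00000394267 and ENST00000394265 held 6.52% and 2.48%. In NNMT line barcodes with exactly 1 count the long form held 61.4%, and 29 of 60 such counts (48.3%, 35.2 to 61.6) named 1 transcript. Of these 29, 28 named the long form and 1 named ENST00000394265.

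PNMT (ENSG00000141744, chr17:39667981-39670475, plus strand) encodes the enzyme that makes adrenaline from noradrenaline. It had 113 counts in the NNMT line and 1 in each of the others, or 34.1 CPM (28.1 to 41.0), 0.289 CPM (0.00733 to 1.61) and 0.218 CPM (0.00552 to 1.21). The ratio was 118 with an interval of 20.7 to 4700, wide because it rests on 1 count, and it was 39.3 with the other lines at the floor of 3 counts. A single NNMT line barcode held 16 of the 113 counts. TCAP (ENSG00000173991, chr17:39664187-39666555, plus strand) encodes telethonin, a protein of the muscle sarcomere. It had 32, 2 and 1 counts, too few for the limit of 50, with 9.67 CPM (6.61 to 13.6), 0.579 CPM (0.0701 to 2.09) and 0.218 CPM (0.00552 to 1.21). Its ratio was 16.7 (4.26 to 144).

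MED1 and CDK12 encode parts of the transcription machinery and lie farthest from ERBB2 among the members. MED1 (ENSG00000125686, chr17:39404285-39451286, minus strand), the Mediator subunit that nuclear receptors contact, had 236, 91 and 128 counts. The levels were 71.3 CPM (62.5 to 81.0) in the NNMT line, 26.3 CPM (21.2 to 32.3) in the RARRES2 line and 27.9 CPM (23.3 to 33.2) in the FOLR1 line, where the latter intervals overlapped. The ratio was 2.56 (2.05 to 3.20). CDK12 (ENSG00000167258, chr17:39461761-39535146, plus strand), a kinase of RNA polymerase II, had 260, 127 and 138 counts. Its levels were 78.5 CPM (69.3 to 88.7), 36.7 CPM (30.6 to 43.7) and 30.1 CPM (25.3 to 35.5), and the ratio was 2.14 (1.72 to 2.66), an interval that reaches under the limit of 2. With a marker share of 90% in place of 75% the ratio of CDK12 was 1.88.

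CDK12 transcripts were told apart in most reads. ENST00000447079 has 27 bases at the start of its last exon, chr17:39530604-39530630, that ENST00000430627 lacks. They are printed in capitals between exon 13 and the rest of exon 14 (GENCODE release 29, GRCh38, plus strand) because the transcript shares turn on this choice and on the different ends.
CDK12 ENST00000447079: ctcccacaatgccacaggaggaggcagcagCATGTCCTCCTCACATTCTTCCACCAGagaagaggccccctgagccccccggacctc
Of 411 single CDK12 counts 297 (72.3%, 67.7 to 76.5) named 1 transcript, 237 the form with these bases and 60 the other. Among those that named 1, the form with the bases was 93 of 111 in the NNMT line (83.8%, 75.6 to 90.1), 45 of 58 in the RARRES2 line (77.6%, 64.7 to 87.5) and 65 of 85 in the FOLR1 line (76.5%, 66.0 to 85.0). These intervals overlapped. For MED1, whose forms have different last exons, 295 of 357 single counts (82.6%, 78.3 to 86.4) named 1 transcript, 224 of them ENST00000300651. That form was 73.5%, 84.9% and 71.8% of the counts that named 1 in the NNMT, RARRES2 and FOLR1 lines, with overlapping intervals.

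The summed counts of the 10 members were 6185 in the NNMT line, 892 in the RARRES2 line and 1077 in the FOLR1 line. That was 1868 CPM (1822 to 1915), 258 CPM (241 to 276) and 235 CPM (221 to 249). The lines other than NNMT had overlapping intervals. As log2, the median ratio of the 9 members with 50 counts was 3.22 and that of all entries was -0.05. With all 10 members and a floor of 3 counts for the other lines it was 3.29. For the 6 members with 50 counts in the other lines it was 1.62, beside -0.11 for the 9157 entries.

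Along the chromosome, the ratios were over 9 from PPP1R1B to PGAP3 and ERBB2 and lower for the members on either side. Distances here run between gene starts, in kb or Mb (kilobases or megabases). MED1 and CDK12, 237 and 226 kb before ERBB2, had ratios of 2.56 and 2.14. PPP1R1B, STARD3 and PNMT, 61.2, 50.8 and 19.9 kb before it, had 116, 9.32 and 118, and TCAP, 23.7 kb before it, had 16.7. With other lines held at no less than 3 counts, PNMT was at 39.3 and TCAP at 11.1. PGAP3, which starts 0.193 kb after the ERBB2 start and runs back across it on the minus strand, had 10.3. MIEN1 and GRB7, 42.9 and 50.01 kb after it, had 3.70 and 1.94. This order rests in part on PPP1R1B, PNMT and PGAP3, which had to differ, and on TCAP, which had fewer than 50 counts. Of the members with ratios over 9, only STARD3 and ERBB2 had 50 counts in the other lines.

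Within 1 Mb of ERBB2 there were 32 entries with at least 50 counts, of which 23 were not members. Of these 23, 18 had a ratio over 1, where 47.6% of all entries did, and 5 were called higher in the NNMT line, where 10.8% of all entries were. The called ones were PIP4K2B (2.49, 1.74 to 3.61), a phosphoinositide kinase gene 888 kb before ERBB2, and 4 genes after it. ORMDL3, a regulator of sphingolipid synthesis 239.7 kb away, had 2.77 (1.85 to 4.21). PSMD3, a proteasome subunit gene 293 kb away, had 3.38 (2.93 to 3.90), from 838, 259 and 311 counts in the NNMT, RARRES2 and FOLR1 lines. NR1D1, a nuclear receptor of the circadian clock 413 kb away, had 3.84 (2.87 to 5.21), from 217, 59 and 14 counts. MSL1, a subunit of a histone acetyltransferase complex 434 kb away, had 2.72 (2.09 to 3.58).

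Other entries around the members had smaller ratios over 1. FBXL20, next to MED1, had 1.69 (1.23 to 2.35), and MED24, THRA, CASC3 and WIPF2 had 1.55, 1.62, 1.52 and 1.92. From FBXL20 to WIPF2, 18 adjacent entries with 50 counts all had ratios over 1, over 817 kb, and 9 of them were members. This run counts PPP1R1B, PNMT and PGAP3, which had to differ. Over entries with 50 counts in the other lines alone it held 15 entries, 6 of them members. Of 1886 such runs over the genome 1 was longer, with 18 entries on chromosome 4, and 1 on chromosome 12 was as long. The run around ERBB2 was bounded by RPL19 (0.649, 0.634 to 0.664), a ribosomal protein gene, and by CDC6 (0.896, 0.695 to 1.15), a replication licensing gene. Farther out, TOP2A had 1.38 (1.26 to 1.53), RARA had 1.47 (0.984 to 2.22), and IGFBP4 was lower in the NNMT line, with 3, 936 and 11 counts. On the side before RPL19, LASP1, CWC25, PSMB3 and CISD3 had 1.36, 1.65, 1.44 and 1.74, RPL23 had 0.702, PCGF2 had 0.966 and MLLT6 had 1.02 (0.805 with mitochondrial and ribosomal protein genes left out of the totals). The joined entry of SMARCE1, KRT222 and an unnamed locus had 1.57.

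**Figure D3:**
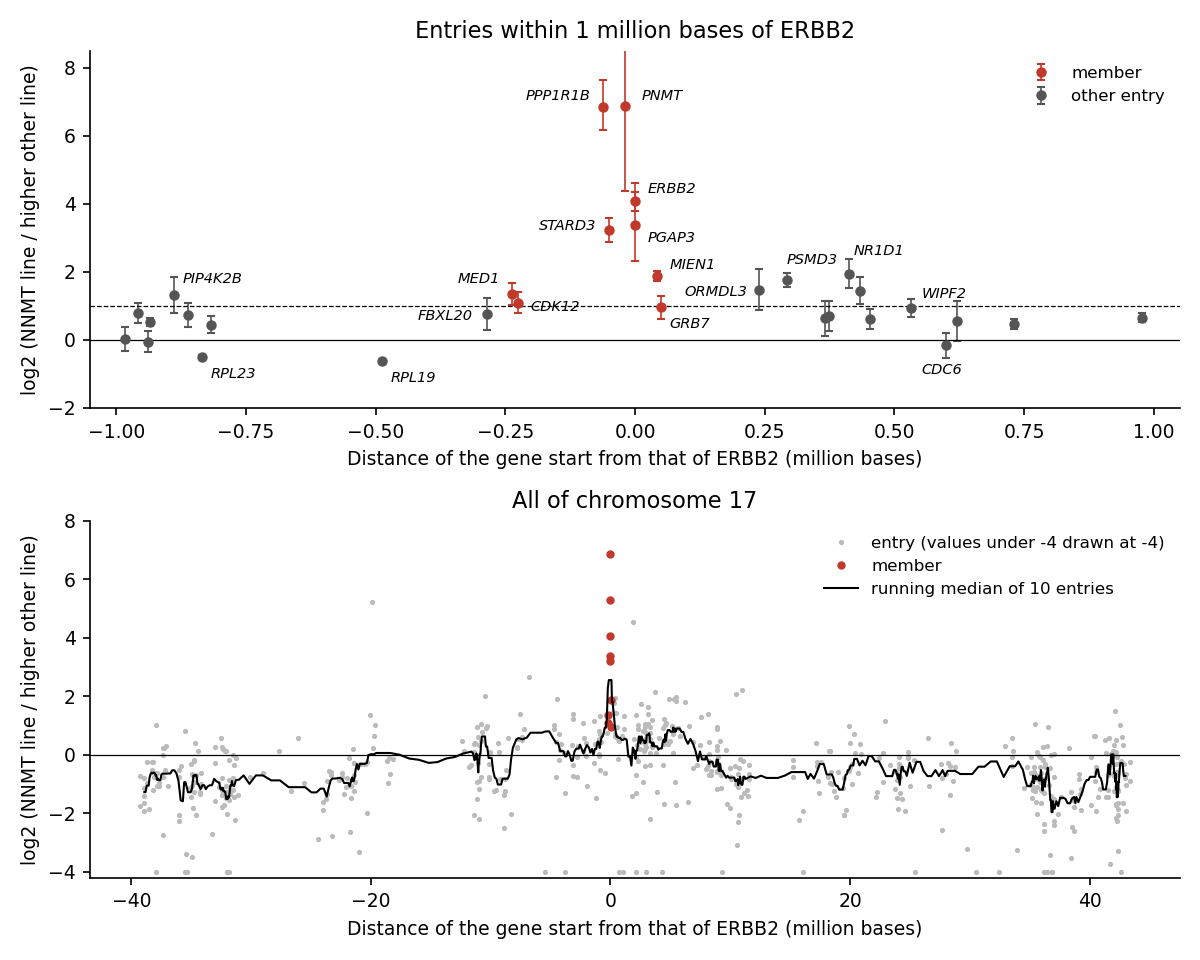
log2 ratio of the NNMT line to the higher other line against the distance of the gene start from that of ERBB2, in Mb, for entries within 1 Mb (top, 95% counting intervals, dashed line at the limit of 2-fold) and for all of chromosome 17 (bottom, running median of 10 entries in black). Members are red; IGFBP4 lies below the top panel, the interval of PNMT runs off it, and the bottom panel takes other lines at no less than 3 counts, which puts PNMT lower. The members lie above most entries around them; PPP1R1B, PNMT and PGAP3, among the highest, reached 50 counts through the NNMT line alone and had to differ. Most entries at 10 Mb and more lie under 0.

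In windows of 10 adjacent entries along every chromosome, 126 of 9982 windows had a median log2 ratio of at least 1, and 12 of the 126 held members. The windows with members reached 2.55 and the highest window without a member reached 1.87, from ZFYVE1 to PNMA1 on chromosome 14. Over all windows the median was -0.04. These windows count PPP1R1B, PNMT and PGAP3, which had to differ. Over entries with 50 counts in the other lines alone, a choice made after seeing the data, 52 of 8938 windows had a median of at least 1 and 9 of the 52 held members. The highest, from CDK12 to NR1D1, was then at 1.61, and the highest without a member, from IPO8 to DNM1L on chromosome 12, at 1.41. Chromosome 17 as a whole was not higher in the NNMT line: its 618 entries had a median of -0.53, and 54 (8.74%) were called. At more than 10 Mb the medians were -0.76 before ERBB2 (182 entries) and -0.78 after it (243 entries). Between 2 and 5 Mb they were 0.30 before it (25 entries) and 0.46 after it (56 entries), where 5 and 13 entries were called. The bins nearer than 2 Mb held fewer than 20 entries each.

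Genes away from the region were ranked by how like their level over the 3 lines was to that of ERBB2. Likeness was the Euclidean distance of log2(CPM + 1) over 3 lines, and members and entries within 5 Mb were left out by rule, so no gene near ERBB2 could be listed. AKR1C3, a steroid and prostaglandin reductase on chromosome 10, was nearest at 0.64, with 551 CPM, 26.3 CPM and 17.6 CPM in the NNMT, RARRES2 and FOLR1 lines. FHL2 followed at 1.00, EGR1 at 1.16, SLC35F6 at 1.35 and C8orf4 at 1.36. On the same measure STARD3, the nearest of the members, was at 1.25. With 3 points the measure only lists genes high in the same line.

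The other genes of ERBB signalling did not share 1 pattern. Counts of calls in this and the next lists stand beside the 10.8% of all entries called higher in the NNMT line. Of the 3 other receptors, 0 were called higher and ERBB3 was lower in the NNMT line, with 0, 27 and 42 counts, where 5.13% of all entries were called lower. All 69 ERBB3 counts lay in the lines where it was higher, so it passed the limit of 50 through them alone and its call is no support. EGFR, the founding member of the family, was at 70.4 CPM (61.6 to 80.0) in the NNMT line, 147 CPM (134 to 160.0) in the RARRES2 line and 44.0 CPM (38.1 to 50.5) in the FOLR1 line. ERBB4 had 15, 0 and 158 counts. Of 11 ligand genes 5 had 50 counts and 1 was called, NRG1, a ligand of ERBB3 and ERBB4, with 89, 39 and 1 counts and a ratio of 2.38. NRG1 had 40 counts in the other lines together and reached 50 only through the NNMT line. Passing the limit did not fix its ratio, but its call is no support.

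Among adaptors, GAB1, a docking protein that receptors of this family phosphorylate, was called higher, with 46, 2 and 9 counts and a ratio of 7.09. With 11 counts in the other lines, GAB1 too reached 50 only through the NNMT line and had to differ. Of 8 genes of the PI3K and AKT pathway 2 were called higher, PIK3CB (2.22) and PIK3R1 (2.14), with a median log2 ratio of 0.50 over the list, in which PIK3R2 was counted in 1 entry joined with other genes. Of 12 genes known to respond to ERK, 3 were called higher, with a list median of -0.18. They were ERRFI1, a feedback inhibitor of the receptors (242, 39 and 40 counts, ratio 6.48), EGR1, an immediate early transcription factor (670, 115 and 117 counts, 6.08), and PHLDA1 (3610, 647 and 161 counts, 5.82). In the same list SPRY2 had 46, 61 and 563 counts and DUSP6 had 207, 192 and 1187, both highest in the FOLR1 line.

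None of 7 chaperones and ubiquitin ligases of ERBB2 was called in either direction, with a median of -0.31. Of 31 Mediator subunits and CDK12 partners other than MED1, all had 50 counts and 1 was called, MED15 (189, 93 and 63 counts, ratio 2.12), with a median of 0.21. The values of 3 of the 31 (MED6, MED17 and MED26) are those of entries joined with other genes. Of 6 paralogues of members, 5 had 50 counts and 1 was called, GRB14, a relative of GRB7 (64, 0 and 37 counts, 2.40), with a median of -0.88. GRB14 had 37 counts in the other lines and likewise reached 50 only through the NNMT line. Passing the limit did not fix its ratio, but its call is no support. Against the median of all entries, -0.05, the lists' medians lay on both sides. When mitochondrial and ribosomal protein genes, 14.4% of counts in the NNMT line, 17.1% in the RARRES2 line and 32.6% in the FOLR1 line, were left out of the totals, the median of all entries moved by -0.19. PIK3R1 (1.69), GRB14 (1.89) and PIP4K2B (1.96) were then under the limit, and the other calls named here stayed over it. Of all entries 7.34% were then called higher in the NNMT line. Calls in the lists fell from 11 to 8 and those among the 23 neighbours from 5 to 4.

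Each barcode was thinned to 2000 counts, which left 583, 454 and 742 barcodes in the NNMT, RARRES2 and FOLR1 lines and dropped 37, 32 and 32. ERBB2 was then seen in 51.1% (47.0 to 55.2) of NNMT line barcodes, 3.96% (2.37 to 6.19) of RARRES2 line barcodes and 4.85% (3.42 to 6.65) of FOLR1 line barcodes. Without thinning the shares were 75.6%, 14.8% and 12.3%. MIEN1 was seen in 62.4%, 22.7% and 16.98%, STARD3 in 29.7%, 4.19% and 2.56%, and PPP1R1B in 41.2%, 0% and 0.270%. The 0 of 454 allows a share of up to 0.661% at 3 barcodes (0.809% as the exact upper limit), which is a limit on barcodes with a count at this depth and not on cells with the transcript.

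The members with lower counts were seen less often. CDK12 was in 13.7%, 5.95% and 4.99% of thinned barcodes, MED1 in 12.9%, 6.17% and 5.66%, and GRB7 in 10.1%, 0.881% and 5.26%. PGAP3, PNMT and TCAP were in 4.63%, 3.09% and 1.89% of NNMT line barcodes and in under 1% of the others. Summed over the 10 members, a thinned barcode of the NNMT line had a median of 3 counts (0 to 18), and those of the other lines had a median of 0 (up to 3 and 4). No member was seen in 43 NNMT line barcodes (7.38%), 285 RARRES2 line barcodes (62.8%) and 490 FOLR1 line barcodes (66.0%). The distributions overlapped between 0 and 4 counts.

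**Figure D4:**
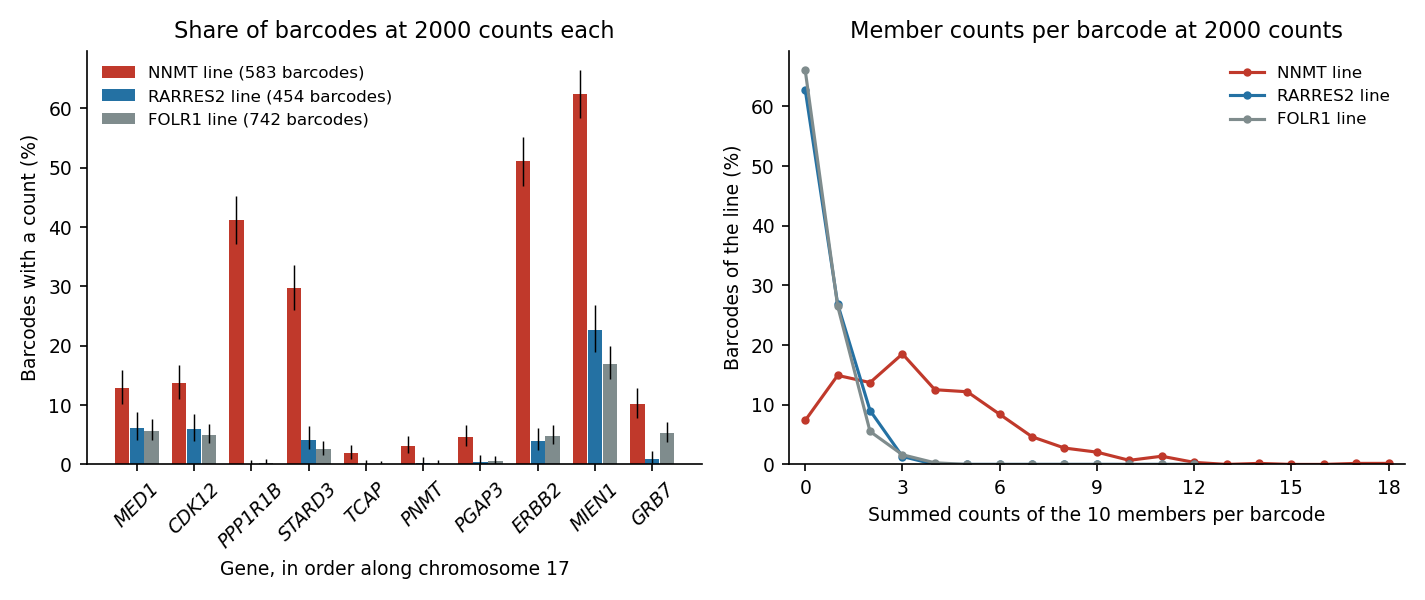
Left, share of barcodes with at least 1 count of each gene after thinning to 2000 counts, in percent, for the NNMT line (red, 583), the RARRES2 line (blue, 454) and the FOLR1 line (grey, 742), with exact 95% binomial intervals. Right, percent of each line's barcodes by their summed member counts: the NNMT line peaks at 3 counts, the others at 0.

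PPP1R1B was spread less evenly over NNMT line barcodes than ERBB2 or MIEN1. Its variance was 2.57 times its mean at 2000 counts, against 1.29 for ERBB2 and 1.13 for MIEN1, where counts drawn at 1 common rate would give 1. At its mean of 0.913 counts such draws would put it in 59.8% of barcodes, and it was in 41.2%. For ERBB2 the corresponding values were 55.7% and 51.1%, and for MIEN1 64.4% and 62.4%. PNMT had 2.89, and 1 barcode held 16 of its 113 counts before thinning. Without thinning, PPP1R1B was in 50.2% of NNMT line barcodes with up to 17 counts each. Below and above the median depth of the NNMT line PPP1R1B was at 522 CPM (480.1 to 567) and 386 CPM (360.4 to 412), and ERBB2 at 433 CPM (395 to 474) and 415 CPM (389 to 443). The counting intervals of PPP1R1B thus did not overlap between shallower and deeper barcodes, while those of ERBB2 did. Counting intervals are too narrow for PPP1R1B, whose variance was 2.57 times its mean. Across the 583 thinned barcodes of the NNMT line the correlations of the 45 member pairs ran from -0.07 to 0.21, highest for STARD3 with PPP1R1B, and had a median of 0.01. The barcodes share 1 library and most member counts are 0 or 1, so these weak values are given as a description.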

How the data were processed

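The values are estimated counts per transcript and barcode that the authors deposited for a 10x preparation sequenced on a PromethION with the LSK-110 kit, per the labels' protocols. The series' design text names Isosceles; no source used here gives its version, the aligner, the annotation or whether molecular identifiers were collapsed. GRCh38 is listed in the submitters' processing notes, and Cell Ranger 6.0.1 is listed there for both libraries. For the Illumina library only the barcode list was used.

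The estimated counts were summed per gene entry, rounded, and pooled per line with Python 3.11.15, numpy 2.4.6, pandas 2.3.3 and scipy 1.17.1. A barcode joined a line when it had at least 1000 counts and 1 marker set held at least 75% of its marker counts: 1880 of 2129 barcodes did, and 249 did not. The line totals were 3310515, 3456107 and 4590139 counts, so 3 counts correspond to 0.906, 0.868 and 0.654 CPM. In calls, medians and alternatives, lines with fewer counts were held at that floor of 3 counts. Intervals are 95% exact Poisson, conditional binomial or Clopper-Pearson. With 1 library per platform no test was made. Scrublet (scanpy 1.11.5) called 77 of 2462 barcodes doublets, which were removed only in an alternative. Counting and calling were tested on simulated data.

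All 37 member transcripts matched GENCODE release 29 with the same span, and promoters came from RefSeq (GRCh38.p14). Named genes were the 10 members, the entries within 1 Mb, up to 3 called genes per list, all ERBB receptors, and the 5 entries most like ERBB2. Some genes of the adaptor list are not reported here. SPRY2 and DUSP6 were added after their values were seen. The members and the lists were chosen with earlier results of these data known. Alternatives varied the marker share, depth, scaling, limits and doublets.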

Additional observations from a re-analysis of the deposited data

How the results depend on the processing

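No paired analysis was possible because only 1 library gave counts. There were 124 alternative values of the members, their counts, shares and background and the neighbour count. Of these, 102 stayed within their counting interval or within 1.5 times a count and 22 moved further. A change of direction could be counted only for the 80 member ratios and the member median, and none occurred. The count of 8 members at least 2-fold higher was 5 at a limit of 4-fold (2.11% of entries), 6 of 7 with at least 200 counts per entry (8.83%), and 9 with called doublets removed (11.2%), where GRB7 reached 2.01. The ratio of ERBB2 ran from 13.2, with mitochondrial and ribosomal protein genes left out of the totals, to 18.1; under that scaling GRB7 was at 1.53, MED1 at 2.01 and CDK12 at 2.06. With a marker share of 90% the count stayed at 8 (10.4%) with CDK12 at 1.88 and GRB7 at 2.05. Left out of those 124 are the genes around the members and in the lists: with mitochondrial and ribosomal protein genes left out of the totals, 1 of 23 neighbours (MLLT6) and 6 of 84 list entries crossed a ratio of 1. PPP1R1B ran from 91.5 to 491, the latter also at the floor of 3 counts since 0 and 2 counts stayed in the other lines without called doublets. At that floor PNMT ran from 22.3 to 44.9 and TCAP ran from 7.71 to 13.4. The share of barcodes with ERBB2 in the NNMT line was 31.9% at 1000 counts, 71.6% at 4000 and 75.6% without thinning. In the RARRES2 line it was 10.7% at 4000 and 14.8% without thinning, and in the FOLR1 line 2.07%, 9.93% and 12.3%. With estimates whole within 1e-06 alone, the 3 main ERBB2 transcripts tied at 32.4% each in the NNMT line and at 20% each in the RARRES2 line, where each had 1 of 5 counts and ENST00000578199 had 2. Other entries within 1 Mb called higher were 3 with at least 200 counts and 9, in place of 5, against the mean of the other lines, which gave GRB7 a ratio of 3.56 and a background of 18.2%. That comparison, the second sets of windows and runs and the shares without thinning were chosen after seeing the data.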
